A study of Mus musculus with 24 samples.

Results

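The 10 genes described here mark the subtypes of cortical GABAergic interneurons: Pvalb, Sst, Vip, Npy, Cck, Lamp5, Reln, Calb2, Crh and Lhx6. They were taken by symbol from the RNA-seq tables, which hold 24972 genes, and all 10 were present. RNA came from the medial prefrontal cortex (mPFC) of wild-type B6D2F1/J hybrid mice at postnatal day 21 (P21). There were 6 libraries each of male MO, male SAL, female MO and female SAL offspring. MO offspring were born to C57BL/6J dams given subcutaneous morphine sulfate once a day, from a week before breeding until weaning at P21, at 10 mg/kg after lower doses on the first days, and SAL offspring to dams given the same volume of saline. Sires were DBA/2J, only the dams were injected, and small litters were combined after birth, so that some pups were raised by a dam other than their own. Each library is 1 offspring, with 1 male and 1 female taken per litter, so a male and a female library can come from the same litter, and which ones do is not given. The libraries of each sex were normalized by the authors in a table of their own, so MO was compared with SAL within a sex, and levels were not tested between the sexes.

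Interneurons inhibit the pyramidal cells around them and each other, and their subtypes differ in the part of the cell that they contact. Parvalbumin and somatostatin cells arise in the medial ganglionic eminence of the embryo under the control of Lhx6, and they contact pyramidal cell bodies and dendrites. VIP, CCK and most LAMP5 cells arise largely in the caudal ganglionic eminence, and VIP cells inhibit mainly other interneurons. Several of the markers are neuropeptides that are released with GABA and act on G protein-coupled receptors. Pvalb and Calb2 encode the calcium-binding proteins parvalbumin and calretinin, Reln encodes a secreted glycoprotein of the extracellular matrix, and Lamp5 a lysosome-associated membrane protein. Markers such as Cck and Crh are not restricted to interneurons. Many pyramidal cells of the mouse cortex also make Cck, for example.

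The genes lie on 9 chromosomes of the mm10 build, where GENCODE M21 places Lhx6 (chr2:36081953-36105408) and Lamp5 (chr2:136052239-136069917) together on chromosome 2. Reln (chr5:21884454-22344702) has the longest transcript of the 10, at 11.7 kb, and Npy (chr6:49822710-49829507) the shortest, at 0.566 kb. Pvalb (chr15:78191114-78206400), Crh (chr3:19693401-19695396) and Calb2 (chr8:110137502-110168210) each lie on a chromosome that holds no other of the 10. RefSeq promoter sequences on the same assembly (GRCm38.p6) were given for 8 of the 10 genes, with Calb2 and Crh not among them. The 120 bases before the annotated start were searched on both strands for the cAMP response element TGACGTCA and for TGACG, the shorter motif inside it, and on the coding strand for the TATA motif TATAAA. Those of Sst, Cck and Vip are shown because they alone held a match and because each of these genes varied together with another across the libraries. Capitals mark the matches and each line reads 5′ to 3′ on the coding strand, from chr16:23890845-23890964 (minus strand) for Sst, chr9:121495695-121495814 (minus strand) for Cck and chr10:5639098-5639217 (plus strand) for Vip.
Sst: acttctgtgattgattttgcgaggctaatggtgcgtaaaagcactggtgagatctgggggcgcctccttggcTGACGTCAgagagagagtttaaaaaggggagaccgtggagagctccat
Cck: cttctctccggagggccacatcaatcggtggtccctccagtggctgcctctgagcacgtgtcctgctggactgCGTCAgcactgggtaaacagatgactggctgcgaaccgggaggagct
Vip: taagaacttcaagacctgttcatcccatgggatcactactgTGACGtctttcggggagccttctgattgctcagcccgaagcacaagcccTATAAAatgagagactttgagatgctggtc
The Sst window held TGACGTCA beginning 48 bases before the start, and 1.24% of all 32851 promoter windows of this length held that motif. TGACG stood 47 bases before the start of Cck on the opposite strand, and 79 bases before that of Vip, against 11.7% of all windows. TATAAA stood 30 bases before the start of Vip, against 4.19% of all windows. These matches describe the letters only, and binding was not measured.

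Levels were compared between genes as normalized counts per kb of transcript. In every group the order was Cck, Sst, Npy, Lamp5, then Pvalb and Vip, then Calb2, and last Lhx6, Reln and Crh. Cck averaged 8427 ± 1489 normalized counts per kb in male MO and 8206 ± 751 in male SAL libraries, and 7874 ± 1932 in female MO and 8522 ± 563 in female SAL libraries (SD, n = 6 each). Sst averaged 5399 ± 851 per kb in male MO and 5094 ± 585 in male SAL, and 4755 ± 814 in female MO and 4914 ± 392 in female SAL. The 2 peptide genes were thus the most abundant of the 10, and Cck lay above Sst within every library. Between libraries, the lowest Cck value also lay above the highest Sst value in both SAL groups. In the MO groups it lay slightly below it, at 6868 against 6975 per kb in males and 5775 against 5834 in females. Sst, Npy and Lamp5 each lay above the next gene in the order without overlap in all 4 groups. Pvalb, at 571 ± 54.7 per kb in male MO and 541 ± 66.9 in male SAL, overlapped Vip, at 547 ± 55.2 in male MO and 528 ± 44.0 in male SAL, and they also overlapped in females. Calb2 lay between 123 and 289 per kb in all libraries, and below Vip and above Lhx6 without overlap within each group. Lhx6, Reln and Crh were not separable from their neighbours, with group means between 62.6 and 83.3 per kb. In normalized counts that are not divided by length, Reln was above Lhx6 on average in all 4 groups.

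**Figure D1:**
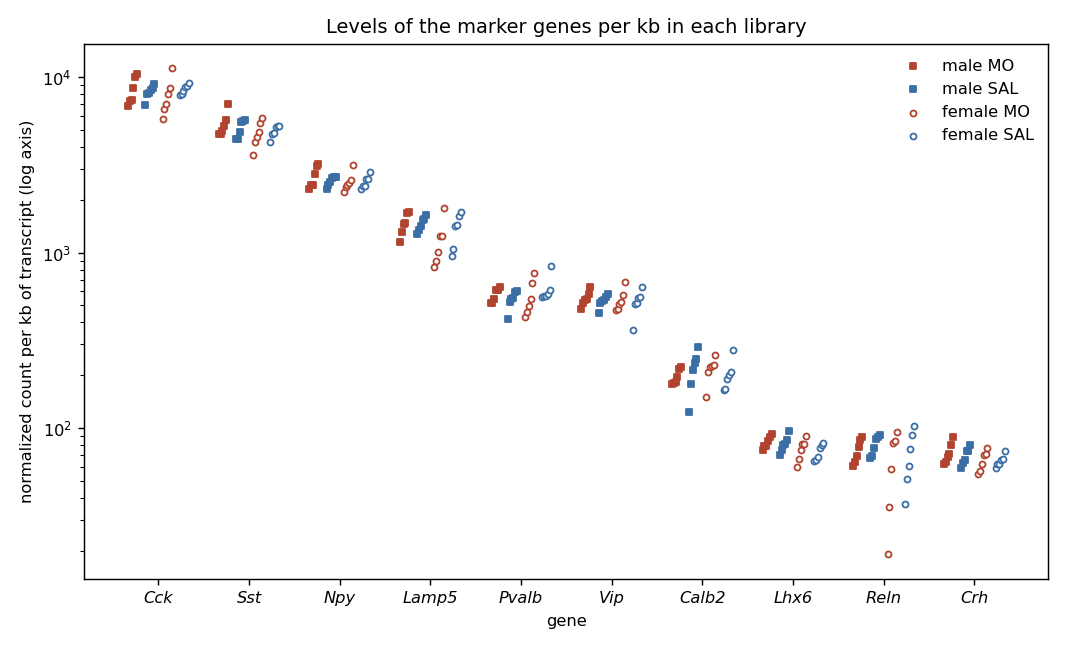
Normalized counts per kb of transcript (y axis, log scale) of each gene (x axis) in 24 mPFC libraries, with squares for male and circles for female libraries, red for MO and blue for SAL. Cck and Sst lie highest, Lhx6, Reln and Crh lowest, and the lowest circle is the Reln value of 19.03 per kb in 1 female MO library; male and female values were normalized separately.

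None of the 10 markers passed the test between MO and SAL libraries in either sex, and most group means lay close together. limma with Benjamini-Hochberg adjustment over all genes kept put 0 of the 10 markers at an adjusted p under 0.05, whether males, females or both sexes together were tested, against 0% of all genes in each comparison. At an unadjusted p under 0.05, the count was again 0 of 10 in each, against 2.85% of 16662 genes in males, 2.93% of 16717 in females and 4.72% of 17303 over both sexes. With backgrounds this low, a count of 0 among 10 genes lies near the background and says nothing particular of these genes. All 10 had passed the filter on low values, a sum of at least 10 over the libraries compared. The smallest exact 2-sided permutation p over the 924 relabellings was 0.340 in males (Reln) and 0.279 in females (Lamp5), and the smallest permutation p over both sexes was 0.307 (Lamp5). No gene had MO and SAL libraries that did not overlap. In these bulk libraries, fewer cells of a type and less RNA per cell cannot be told apart.

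**Figure D2:**
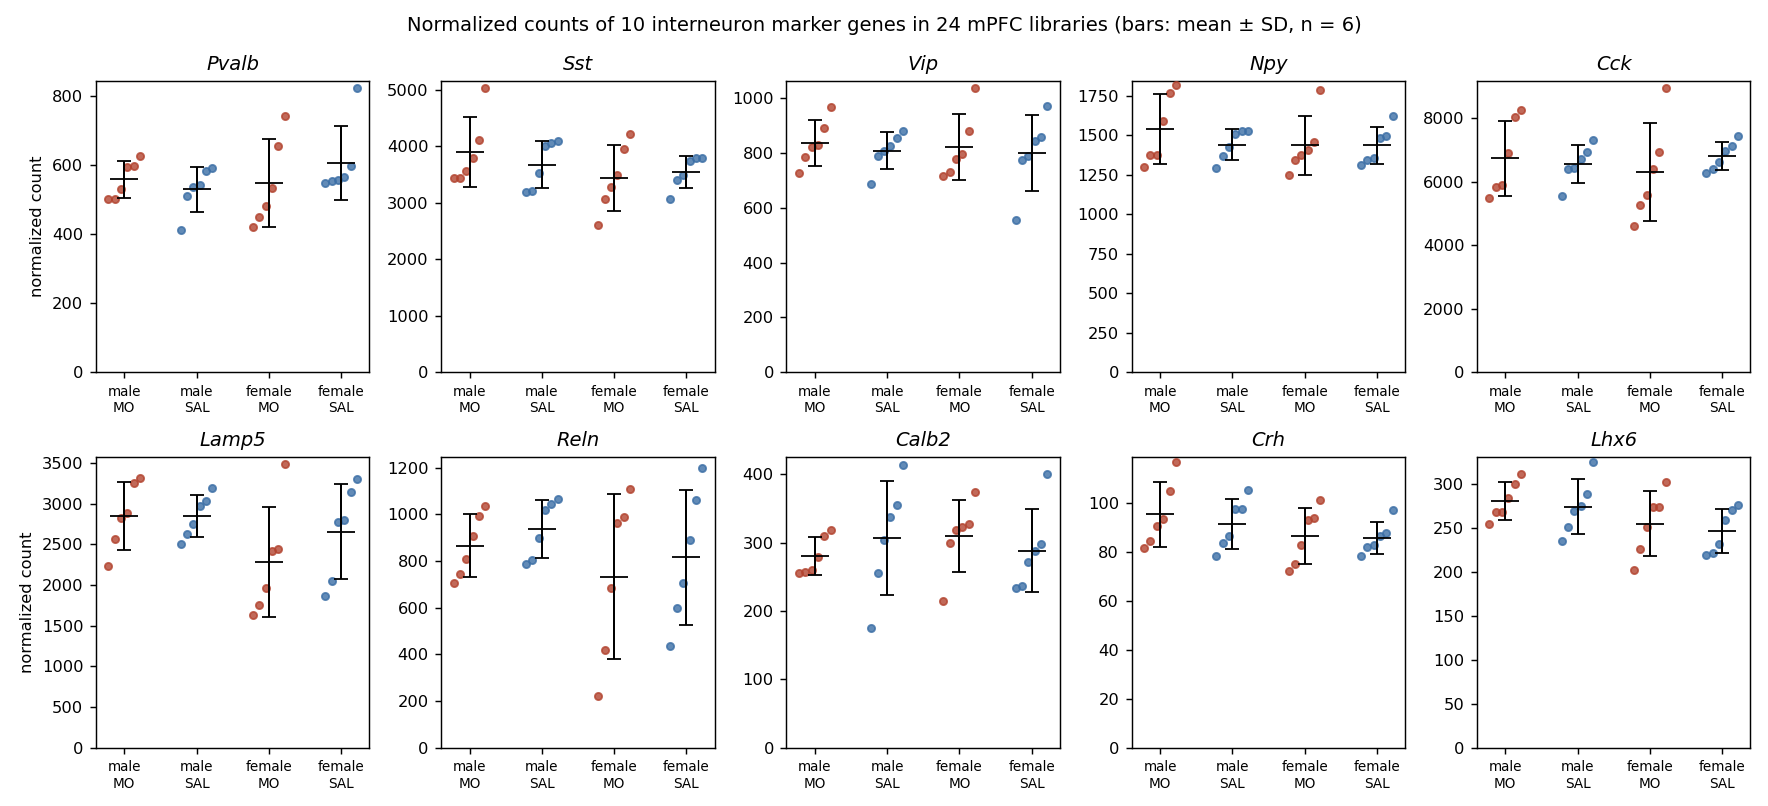
Normalized counts (y axis, from 0) of each gene in the 6 libraries of each group (x axis), with MO in red to the left of SAL in blue; bars are the mean ± SD. The MO and SAL points overlap in every panel, and the spread relative to the mean is widest for Reln in female MO libraries (SD 48.3% of the mean), whose values and those of female SAL run from 223 to 1199.

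The genes of the medial ganglionic eminence lineage had intervals that crossed 0 in both sexes. Sst encodes somatostatin, the peptide of dendrite-targeting interneurons, and had 3433, 3674 and 5029 normalized counts (lowest, median and highest) in male MO libraries, against 3183, 3755 and 4081 in male SAL. In females it had 2596, 3381 and 4206 in MO, against 3069, 3605 and 3789 in SAL. MO libraries thus reached higher than SAL libraries in both sexes while the medians lay close together. The log2 fold change of MO over SAL was 0.08 in males (95% interval -0.11 to 0.27), -0.06 in females (-0.28 to 0.16) and 0.01 over both sexes (-0.14 to 0.16), all on the log2(normalized count + 1) scale. Pvalb, the marker of fast-spiking basket and chandelier cells, had 502, 562 and 625 in male MO, against 410, 537 and 591 in male SAL. Its female values were 420, 508 and 742 in MO, against 546, 559 and 822 in SAL. In females 4 of 6 MO libraries lay below all SAL libraries, while the other MO libraries, PFC1 (655) and PFC21 (742), lay above 5 of the 6. The log2 fold change of Pvalb was 0.08 in males (-0.09 to 0.26) and -0.16 in females (-0.46 to 0.14). Lhx6, the transcription factor that directs these lineages, had log2 fold changes of 0.04 in males (-0.13 to 0.20) and 0.04 in females (-0.18 to 0.26), with values between 202 and 325 over all 24 libraries. Npy, a peptide of many somatostatin cells and of neurogliaform cells, had log2 fold changes of 0.08 in males (-0.08 to 0.25) and -0.00 in females (-0.18 to 0.17), and its interval over both sexes, -0.08 to 0.16, was the narrowest of the 10. The 3 highest male MO libraries of Npy, at 1592 to 1815, lay above all male SAL libraries, which reached 1526.

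Vip, Calb2 and Crh also had intervals that crossed 0 in both sexes. Vip, a peptide of interneurons that inhibit other interneurons, had 726, 827 and 969 normalized counts in male MO, against 688, 816 and 882 in male SAL. In females it had 715, 787 and 1039 in MO, against 555, 818 and 973 in SAL. Its log2 fold change was 0.05 in males (-0.10 to 0.20) and 0.05 in females (-0.21 to 0.31). Calb2 is carried by many Vip cells, and its log2 fold change was -0.09 in males (-0.40 to 0.23) and 0.11 in females (-0.19 to 0.41). Male MO values of Calb2 were 255, 270 and 318, inside the male SAL range of 176, 321 and 414. Female MO values were 215, 321 and 375, against 234, 280 and 401 in female SAL. Without the male SAL library PFC16, which had the lowest Calb2 value, the male log2 fold change was -0.24 (unadjusted p = 0.03448, adjusted p = 1 in limma, with 0.963 the lowest under any alternative). Crh encodes corticotropin-releasing hormone and lay between 72.1 and 117 in all libraries, with log2 fold changes of 0.06 in males (-0.17 to 0.28) and 0.00 in females (-0.23 to 0.24).

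Cck and Lamp5 had lower means in female MO than in female SAL libraries, within the spread between animals. Cck encodes cholecystokinin and had 4614, 5997 and 8956 normalized counts in female MO libraries, against 6274, 6801 and 7432 in female SAL. The female MO libraries thus lay on both sides of the narrow SAL range, 3 below it and 1 above it. Lamp5, a marker of neurogliaform and related cells of the upper layers, had 1627, 2190 and 3485 in female MO, against 1870, 2793 and 3305 in female SAL. The female log2 fold change was -0.15 for Cck (-0.42 to 0.12) and -0.24 for Lamp5 (-0.62 to 0.14), and the male one 0.03 for Cck (-0.17 to 0.22) and -0.01 for Lamp5 (-0.19 to 0.17). Male values of Lamp5 were 2231, 2860 and 3323 in MO, against 2508, 2866 and 3196 in SAL, and those of Cck 5488, 6394 and 8258 in MO, against 5539, 6574 and 7300 in SAL. PFC21 was the highest female MO library of both genes. Without it the female log2 fold change was -0.25 for Cck (unadjusted p = 0.02155) and -0.37 for Lamp5 (unadjusted p = 0.0339), with an adjusted p of 0.785 in limma for each (the lowest under any alternative was 0.785 for Cck and 0.7495 for Lamp5).

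Reln varied most between libraries of a group, and its female comparison rested on few libraries. The 6 female MO libraries had 223, 418, 686, 965, 991 and 1110 normalized counts, against 435, 600, 707, 891, 1062 and 1199 in the female SAL libraries. Both groups spanned a wide range and overlapped throughout it, and the lowest value came from the MO library PFC1. Male values were 707, 860 and 1037 in MO, against 789, 960 and 1068 in SAL. The log2 fold change was -0.12 in males (-0.32 to 0.09) and -0.27 in females (-1.02 to 0.48). Without PFC1 the female value was 0.03, and without the female SAL library PFC2 it was -0.44. The SD within groups was 0.55 on the log2 scale, larger than that of 99.3% of 10503 genes with a mean of at least 100. It was 0.75 in females, 0.56 in females without PFC1 and 0.21 in males. Calb2 (0.30) and Lamp5 (0.29) came next, whereas the SD of Crh (0.17) was 1.09 times the 0.15 that counting error alone would give at the estimated depth.

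In the tables, 11 library names end in the word combined (4 female MO, 4 female SAL, 2 male MO and 1 male SAL), without a statement of what was combined. Reln separated the female libraries by this suffix: the 4 without it had 991 to 1199 normalized counts, and the 8 with it 223 to 965. Male libraries did not separate, with 707 to 1068 without the suffix and 901 to 1037 with it. Within the suffix, the female difference of MO minus SAL in Reln was -0.35 on the log2 scale (n = 4 each), and among libraries without it -0.11 (n = 2 each). Several members had female differences of opposite sign by suffix. Sst was at -0.26 with the suffix and 0.33 without it, Cck at -0.32 with and 0.20 without, Npy at -0.10 with and 0.19 without, and Pvalb at -0.28 with and 0.07 without. In males, Sst was at -0.25 with the suffix (2 MO libraries against 1) and 0.19 without it (4 against 5). Whether these differences by suffix exceed the spread between animals was not tested. With a term for the suffix in limma, the count of members at an unadjusted p under 0.05 was again 0 in each comparison.

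**Figure D3:**
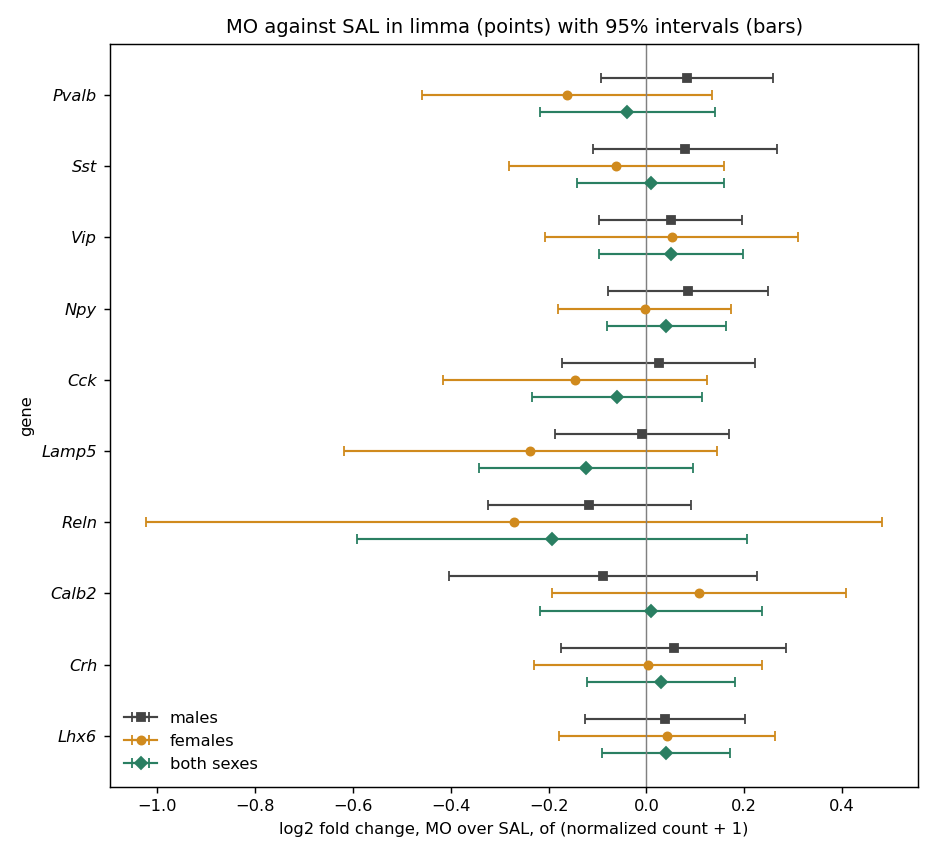
Log2 fold change of MO over SAL (x axis) for each gene (y axis) in males (black squares), females (orange circles) and both sexes (green diamonds), with 95% intervals from limma as bars. Every bar crosses 0, and the widest is that of Reln in females, from -1.02 to 0.48.

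The MO effect was also compared between the sexes as the difference of the differences, female minus male. It was -0.24 for Pvalb (95% interval -0.60 to 0.11), -0.23 for Lamp5 (-0.67 to 0.21), -0.17 for Cck (-0.52 to 0.18), -0.15 for Reln (-0.97 to 0.66), -0.14 for Sst (-0.44 to 0.16) and 0.20 for Calb2 (-0.26 to 0.65), and between -0.09 and 0.01 for the other 4 genes. In limma with Benjamini-Hochberg adjustment, 0 of 10 had an adjusted p under 0.05, against 0% of 17303 genes, and 0 of 10 an unadjusted p under 0.05, against 2.1%. For Pvalb, the unadjusted p was 0.04117 without the female MO library PFC21 and 0.04062 with sample weights, with adjusted p of 0.963 and 1.00 in limma (0.925 was the lowest under any alternative).

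Few other genes of interneurons passed an unadjusted p of 0.05. The 8 lists of interneuron genes held 57 genes, and 56 of them were tested in females and all 57 otherwise. At an unadjusted p under 0.05, limma gave 1 higher and 0 lower in males, 0 in either direction in females, and 0 higher and 1 lower over both sexes, against 2.85%, 2.93% and 4.72% of all genes in these comparisons, so the counts are near the background. None passed after Benjamini-Hochberg adjustment in any of the 3. The median log2 fold change of these lists was 0.00 in males, beside -0.00 over all genes tested, and -0.04 in females, beside 0.00. For both sexes together it was -0.01, beside 0.00. By list, the medians were 0.06 in males and 0.01 in females for the 4 lineage factors of the medial ganglionic eminence, 0.04 in males and -0.03 in females for the 6 companions of parvalbumin cells, and -0.01 in males and -0.11 in females for the 7 companions of somatostatin cells. They were 0.02 in males and 0.11 in females for the 5 genes of the caudal ganglionic eminence lineage, -0.05 in males and 0.01 in females for the 4 companions of VIP cells, and -0.03 in males and -0.00047 in females for the 5 companions of LAMP5 and CCK cells. The 9 genes shared by most GABAergic neurons had medians of -0.00074 in males and -0.0024 in females. Gad1 and Gad2, the enzymes that make GABA, had log2 fold changes over both sexes of -0.08 (-0.22 to 0.05) and -0.04 (-0.19 to 0.10), and Slc32a1, the vesicular GABA transporter, -0.06 (-0.17 to 0.05). The gene higher in males was Dlx6, a homeobox gene of forebrain GABAergic neurons, with 41.1, 56.8 and 57.4 normalized counts in male MO, against 39.3, 43.5 and 50.6 in male SAL. 5 of the 6 male MO libraries lay above all male SAL libraries, with a log2 fold change of 0.27 (0.02 to 0.52, exact 2-sided permutation p = 0.0216, adjusted p = 1.00 in limma). In females it was 0.03 (-0.29 to 0.35). Over both sexes, the lower gene was Sstr4, a somatostatin receptor, at -0.26 (-0.51 to -0.01, unadjusted p = 0.0458, adjusted p = 0.847 in limma, permutation p = 0.0622). The list of receptors held 17 genes, which serve somatostatin, VIP, NPY, cholecystokinin, CRH and reelin, among them Dab1, an adaptor of reelin receptors. It had a median of -0.03 in males and -0.08 in females, with 0 of 17 and 0 of 16 at an unadjusted p under 0.05.

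Although the groups did not separate, several markers varied together from library to library. Each library's deviation from its group mean was correlated between genes over 24 libraries, for 45 pairs, with 100000 permutations within groups and Benjamini-Hochberg adjustment over the pairs. In 6 pairs the adjusted permutation p was under 0.05, all with a positive r. Vip and Lamp5 had r = 0.80 (permutation p = 4e-05, adjusted p = 0.0018) and rho = 0.69 (permutation p = 0.00076), with r = 0.81 in males and 0.80 in females. Lamp5 and Reln had r = 0.78 (permutation p = 0.00039, adjusted p = 0.00517) and rho = 0.76 (permutation p = 0.00044), with r = 0.46 in males and 0.84 in females. Vip and Calb2 had r = 0.69 (permutation p = 0.00018, adjusted p = 0.00405) and rho = 0.73 (permutation p = 0.00011), with r = 0.72 in males and 0.75 in females. Each of these 3 pairs kept an adjusted permutation p under 0.05 without the 2 libraries farthest from the median of its first-named gene. Their r was then 0.66, 0.70 and 0.74. Extremes of the second gene could stay in. Without PFC1, the lowest Reln library, Lamp5 and Reln had r = 0.78 (adjusted permutation p = 0.0087). Lamp5 and Reln had r = 0.77 among libraries with the suffix combined (n = 10, permutation p = 0.00856). Among those without it they had r = 0.41 (n = 13, permutation p = 0.205).

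The other 3 pairs did not keep an adjusted permutation p under 0.05 when the 2 farthest libraries were left out. Sst and Cck had r = 0.74 (permutation p = 0.00046, adjusted p = 0.00517) and rho = 0.64 (permutation p = 0.00261). Npy and Cck had r = 0.71 (permutation p = 0.00183, adjusted p = 0.0165) and rho = 0.63 (permutation p = 0.00497). Vip and Reln had r = 0.65 (permutation p = 0.0023, adjusted p = 0.0172) and rho = 0.58 (permutation p = 0.00695). Without the 2 farthest libraries they had r = 0.60, 0.50 and 0.47, with adjusted permutation p of 0.0826, 0.168 and 0.137, so these relations rest in part on those libraries. Among libraries of 1 suffix class, Npy and Cck had r = 0.01 with the suffix combined (n = 10, permutation p = 0.966) and 0.90 without it (n = 13, permutation p = 0.00188). The other 5 pairs had an adjusted permutation p under 0.05 after group and suffix means were both removed, at r = 0.55 to 0.78 over 23 libraries. Pvalb had no such partner, and its lowest r was -0.60, with Lhx6 (permutation p = 0.00894, adjusted p = 0.0575).

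**Figure D4:**
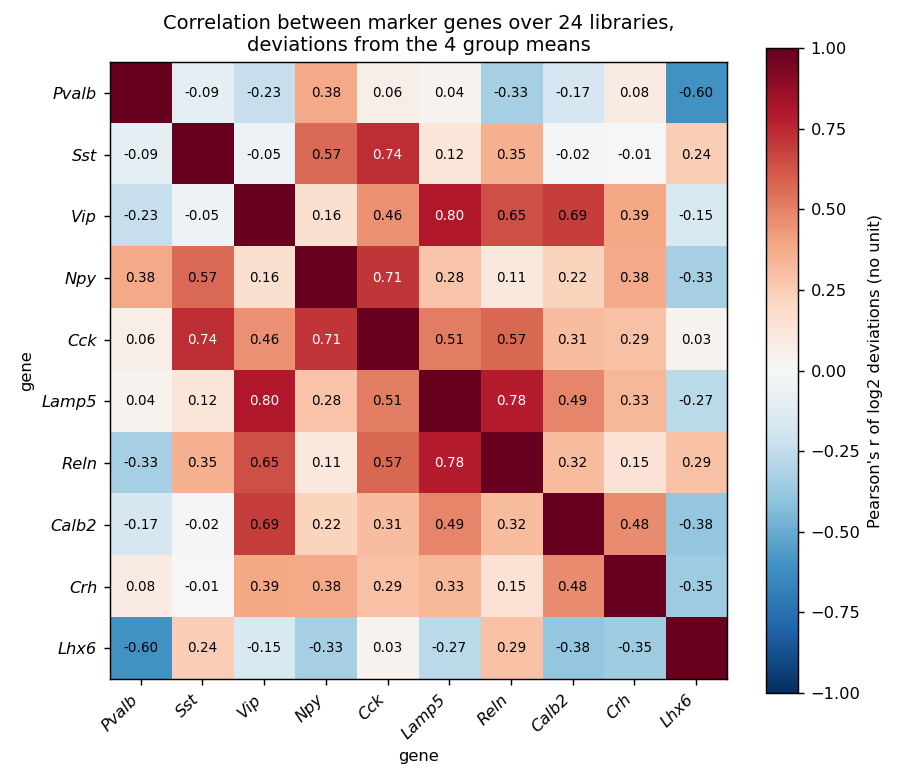
Pearson's r (colour and number, no unit) between each pair of genes, over 24 libraries, of log2 deviations from the group means. Values among Vip, Lamp5, Reln and Calb2 are positive, up to 0.80, and those among Sst, Npy and Cck are 0.57 to 0.74. These sets are not separate blocks, since Cck has higher values with Reln and Lamp5 than Reln has with Calb2. Pvalb and Lhx6 have the lowest value, -0.60.

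Reln moved opposite to the genes of oligodendrocytes, the cells that make myelin. Over 24 libraries, Reln and the mean of 5 oligodendrocyte genes (Mbp, Mog, Mag, Mobp and Cldn11) had r = -0.89 (permutation p = 2e-05, adjusted p = 0.0006 over 90 relations of members and lists) and rho = -0.86 (permutation p = 2e-05). The value was -0.84 in males, -0.92 in females and -0.82 without the 2 farthest libraries. For the lists, these were the libraries farthest from the median of the list. It was -0.85 among libraries with the suffix combined (n = 10, permutation p = 0.0235) and -0.81 among those without it (n = 13, permutation p = 0.00967). Libraries with less Reln thus had more RNA of these genes, and in PFC1 Reln was 1.52 below and the oligodendrocyte list 1.71 above the group mean on the log2 scale. All 5 genes of the list were above 0 in every library. The mean log2 level of the list was 11.15 to 12.98 in male MO, against 11.33 to 12.24 in male SAL, and 11.42 to 13.999 in female MO, against 10.84 to 13.03 in female SAL. Among female libraries it was 10.84 to 11.42 in the 4 whose names lack the word combined and 11.70 to 13.999 in the 8 that have it. All 5 genes had a positive log2 fold change in both sexes, with a median of 0.23 in males and 0.33 in females, and 0 of 5 passed an unadjusted p of 0.05 in limma. The median library of the list was nonetheless lower in female MO, at 11.82, than in female SAL, at 12.09, and PFC1 was the highest MO library. In males the median library was at 11.96 in MO, against 11.75 in SAL. With the list as a term in limma, the log2 fold change of Reln over both sexes was -0.01, against -0.19 without the term.

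Several markers also followed other lists, and some lists were followed by several markers. Reln also had r = -0.85 with the microglia list (permutation p = 1e-05, the smallest these permutations can give, adjusted p = 0.00045), with -0.67 in males and -0.89 in females. Sst had r = -0.78 with the astrocyte list (permutation p = 0.00018, adjusted p = 0.00324; rho = -0.68, permutation p = 0.00111), with -0.93 in males, -0.71 in females and -0.56 without the 2 farthest libraries. The astrocyte list was also followed by Cck (r = -0.71, permutation p = 0.00231, adjusted p = 0.0297; rho = -0.62, permutation p = 0.00445) and by Reln (r = -0.69, permutation p = 0.00675, adjusted p = 0.0434; rho = -0.50, permutation p = 0.0285), the second with r = -0.06 in males and -0.83 in females. The oligodendrocyte list was also followed by Cck (r = -0.65, permutation p = 0.00332, adjusted p = 0.0373; rho = -0.60, permutation p = 0.00452). Calb2 had r = 0.77 with the 4 genes that mark projection neurons of the olfactory bulb, Tbx21, Cdhr1, Doc2g and Eomes (permutation p = 1e-05, adjusted p = 0.00045), and rho = 0.74 (permutation p = 0.0002). The value was 0.77 in males, 0.79 in females and 0.64 without the 2 farthest libraries. It was 0.60 with the suffix combined (n = 10, permutation p = 0.274) and 0.86 without it (n = 13, permutation p = 0.00603). Calretinin is abundant in olfactory bulb interneurons as well as in the cortex. The relation was not particular to Calb2. Lhx6 had r = -0.59 with the same list (permutation p = 0.00546, adjusted p = 0.0379). Vip had r = 0.59 (adjusted permutation p = 0.0604) and Crh 0.51 (adjusted permutation p = 0.0642). Doc2g ranged from 15.6 to 52.5 normalized counts in male MO, against 18.9 to 177 in male SAL, and from 12.5 to 141 in female MO, against 17.96 to 140 in female SAL. Tbx21 was at 0 in at least 1 library of every group. With the list as a term in limma, the male log2 fold change of Calb2 was 0.08, against -0.09 without the term. In all, 14 of the 90 relations had an adjusted permutation p under 0.05. Those not named above include Reln with striatal projection neurons (r = -0.69, adjusted permutation p = 0.00324, r = -0.51 without the 2 farthest libraries). Sst had r = -0.68 with endothelium and 0.61 with excitatory neurons (adjusted permutation p = 0.0246 and 0.0379). Cck had -0.64 with immature neurons and -0.65 with endothelium, and Reln -0.63 with endothelium (adjusted permutation p = 0.0379 each). For Reln and endothelium, r was 0.04 in males, -0.86 in females and -0.49 without the 2 farthest libraries. After group and suffix means were both removed, over 23 libraries, not all of the 14 kept an adjusted permutation p under 0.05. That p was 0.0742 for Reln with striatal projection neurons and 0.152 for Reln with astrocytes and with endothelium. For Lhx6 with the olfactory bulb list it was 0.0726. For Cck it was 0.0617 with astrocytes, 0.0552 with immature neurons and 0.124 with endothelium. The others of the 14 stayed under 0.05. The part of these other cells in the levels of the markers was not tested.

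**Figure D5:**
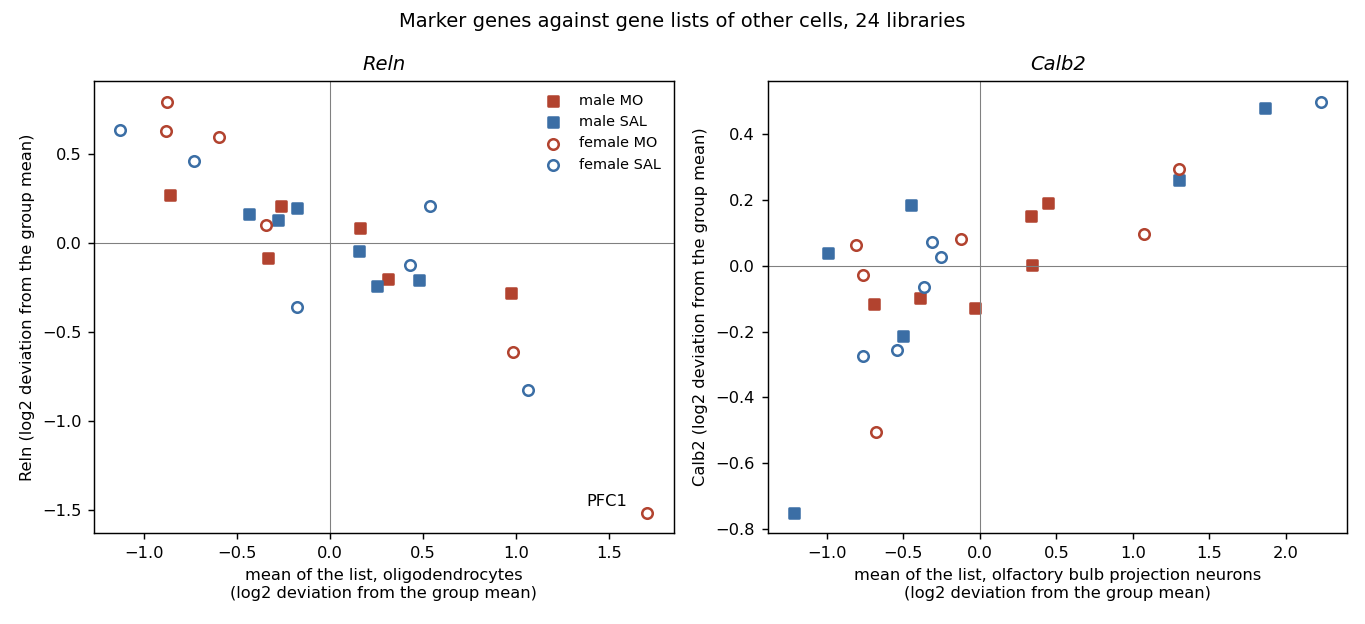
Log2 deviations from the group means of Reln against the oligodendrocyte list (left) and of Calb2 against the list of olfactory bulb projection neurons (right) in 24 libraries, with squares for male, circles for female, red for MO and blue for SAL. Reln falls as the oligodendrocyte list rises (r = -0.89), with PFC1 at the lower right, and Calb2 rises with the other list (r = 0.77).

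Cajal-Retzius cells, which make reelin in the developing cortex, left few reads at this age. Trp73, their defining marker, lay between 1.95 and 7.72 normalized counts in all libraries, and Lhx1 and Lhx5 had a median below 1 in every group. Reln and this list had r = -0.04 (permutation p = 0.83), with 0.57 in males and -0.29 in females, and the list rests in part on genes at 0 in most libraries.

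Across 10503 genes with a mean of at least 100, the genes most like each marker were named by their r over 24 libraries, as a description. Reln was most like Eif4g3 (r = 0.97) and Map9 (0.96), Sst like Fbll1 (0.95) and Uchl1 (0.93), Cck like Stub1 (0.94) and Lrrc73 (0.93), and Vip like Calb1 (0.90) and Lrrtm4 (0.87). Lamp5 was most like Lingo2 (0.90) and Susd5 (0.89), Npy like Dynlrb1 (0.89) and Cfl1 (0.88), Pvalb like Kcnab3 (0.85) and Cabp1 (0.84), and Lhx6 like Dzank1 (0.82) and Nhsl2 (0.80). Calb2 (Marcksl1, 0.77, and Hba-a1, 0.77) and Crh (Larp7, 0.61, and Gtf3c2, 0.59) had no gene as close. The 50 genes most like Reln and Lhx6 had long transcripts, with medians of 6.03 and 5.73 kb, and those most like Npy, Sst and Cck short ones, with medians of 1.25, 1.499 and 1.64 kb, against 3.33 kb over all genes compared. The difference between the mean log2 levels of long and of short transcripts (at least 8000 and at most 1500 bases) ran from -0.01 in PFC1 to 1.01 over the 24 libraries. Its r with Reln was 0.59, with Lhx6 0.53 and with Npy -0.55 (adjusted permutation p = 0.0601 each, over 10 genes). The rho was 0.45 for Reln (permutation p = 0.052), 0.46 for Lhx6 (permutation p = 0.0358) and -0.67 for Npy (permutation p = 0.00123). Without the 2 libraries farthest from the median of the long-minus-short difference, r was 0.28 for Reln, 0.30 for Lhx6 and -0.73 for Npy. The first 2 relations thus rest on those libraries. Sst had r = -0.27 over all libraries (adjusted permutation p = 0.452), but -0.77 without the 2 farthest, with -0.82 in males and 0.12 in females. Cck had r = -0.15 (adjusted permutation p = 0.620), but -0.57 without the 2 farthest, with -0.67 in males and 0.15 in females. The part of transcript length in these values was not tested.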

How the data were processed

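Polyadenylated RNA of the mPFC was sequenced as single 85-base reads. The submitters' processing notes name STAR, Salmon, DESeq and the mm10 build, and per the study's methods alignment was for first-strand reads in Illumina BaseSpace. From this the authors deposited a table for each sex of a normalized signal, in which a value is a count after scaling, 0 or in general not a whole number. Only 37.2 to 89.8% of values under 5 lay within 0.02 of a multiple of a library's step, so whole reads were not recovered and tests for counts were not used. From the steps, assigned reads per library were about 13.5 to 20.1 in units of 1000000 (normalized sums 14.7 to 16.0).

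Values were tested as log2(value + 1) with limma 3.58.1 (empirical Bayes with a trend) in R 4.3.3, over genes summing to at least 10 in the libraries compared, with Benjamini-Hochberg adjustment. The pseudocount understates changes of low genes. The fit to all 24 libraries had a sex term and took libraries as independent. Replicates are separate offspring. Permutation tests used Python 3.11.15 and SciPy 1.17.1, and plots matplotlib 3.10.9. The limma step was tested on simulated data.

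The members and the 17 gene lists were chosen with earlier results of these data known. A planned member of the oligodendrocyte list is not reported here, and the list was used without it. Named were all 10 members, from every list at most 3 genes at an unadjusted p under 0.05, the GABA genes Gad1, Gad2 and Slc32a1, up to 6 pairs past an adjusted p of 0.05 and 2 most similar genes per member. Alternatives were no filter or a mean of at least 10, other pseudocounts, ratios of group means, sample weights, scaling to Gapdh and Ppia or to the GABA genes, a term for the suffix combined and leaving out each library. Terms for transcript length and for cell lists, and the analyses by suffix of correlations, were chosen after seeing the data.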

Additional observations from a re-analysis of the deposited data

Results flagged for a closer look

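Pvalb in female SAL libraries had 1 library far from the others: PFC2, at 822 normalized counts, lay above the remaining 5, and its gap to the nearest made up 0.816 of the group's range, above Dixon's critical value for 6 samples. Of 40 groups of 6 libraries examined (10 genes in 4 groups), this was the only 1, and chance gives about 1 in 20. Without PFC2 the female log2 fold change of Pvalb was -0.07, against -0.16 with all libraries.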

How the results depend on the processing

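No alternative put any of the 10 markers at an adjusted p under 0.05 in limma, in any comparison, and the smallest adjusted p of a member was 0.705. Counts at an unadjusted p under 0.05, 0 in each comparison, ranged from 0 to 1 in males, 0 to 2 in females and 0 to 1 for the sex difference when each library was left out, and reached 1 for the sex difference with sample weights. The 6 correlated pairs became 0 in male libraries alone, 2 in female libraries alone, 13 as ratios to the GABA genes (5 of the 6 among them) and 13 with transcript length removed (all 6 among them); ratios share a denominator, and the cause of the others was not tested.

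Most signs that turned were of values near 0, and the cause was not tested. With transcript length as a term, log2 fold changes were -0.0072 for Sst, -0.048 for Cck and 0.00032 for Lamp5 in males, -0.0031 for Crh in females, -0.012 for Sst and -0.010 for Calb2 over both sexes, -0.0029 for Vip and -0.0063 for Lhx6 in the sex difference. With sample weights they were -0.045 for Cck in males, 0.00047 for Sst and -0.012 for Crh in females, -0.042 for Calb2 over both sexes, 0.11 for Reln in the sex difference. Scaling to Gapdh and Ppia gave -0.0019 for Cck in males, 0.030 for Sst and 0.088 for Npy in females, 0.030 for Npy and 0.064 for Crh in the sex difference. Scaling to the GABA genes gave 0.00081 for Lamp5 in males, 0.054 for Sst and 0.11 for Npy in females, 0.023 for Pvalb and 0.0019 for Cck over both sexes, 0.018 for Npy and 0.052 for Crh in the sex difference. The olfactory bulb list as a term gave 0.053 for Lamp5, 0.079 for Calb2 and -0.015 for Lhx6 in males, -0.019 for Crh in females, -0.0064 for Sst over both sexes, -0.11 for Vip and -0.023 for Calb2 in the sex difference. The oligodendrocyte list as a term gave 0.00070 for Lamp5 in males, 0.0030 for Npy in females. Ratios of group means gave 0.0017 for Npy in females, -0.015 for Calb2 over both sexes, -0.0081 for Vip in the sex difference. A term for the suffix gave -0.010 for Vip in the sex difference.

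With each library left out in turn, log2 fold changes that crossed 0 ranged from -0.037 to 0.081 for Cck, -0.055 to 0.060 for Lamp5, -0.24 to 0.0076 for Calb2, -0.0043 to 0.098 for Crh and -0.0041 to 0.088 for Lhx6 in males. They ranged from -0.12 to 0.015 for Sst, -0.049 to 0.11 for Vip, -0.068 to 0.035 for Npy, -0.44 to 0.033 for Reln, -0.044 to 0.052 for Crh and -0.0091 to 0.11 for Lhx6 in females. They ranged from -0.079 to 0.010 for Pvalb, -0.031 to 0.048 for Sst, -0.057 to 0.060 for Calb2 and -0.00052 to 0.054 for Crh over both sexes. They ranged from -0.099 to 0.062 for Vip, -0.32 to 0.15 for Reln, -0.10 to 0.0073 for Crh and -0.047 to 0.069 for Lhx6 in the sex difference. No paired analysis was possible because the library numbers are not shared between groups.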

Other observations

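Endothelial genes were the only ones of the lists for other cells with an unadjusted p under 0.05, at 2 of 4 in females, 1 of 4 over both sexes and 0 of 4 in males, against 2.93%, 4.72% and 2.85% of all genes. Pecam1, an adhesion molecule of endothelial cells, had a log2 fold change of 0.33 in females (95% interval 0.07 to 0.59, exact 2-sided permutation p = 0.026, adjusted p = 0.918 in limma), with 4 of 6 MO libraries above all SAL libraries, and 0.21 over both sexes (permutation p = 0.0508). Flt1, a receptor of vascular endothelial growth factor, had 0.21 in females (0.03 to 0.40, exact 2-sided permutation p = 0.0519, adjusted p = 0.918 in limma). All 4 endothelial genes lay above 0 in females, with a median of 0.19, while the median in males was -0.02. The 8 other lists for other cells had 0 genes at an unadjusted p under 0.05 in limma in either sex. Of these, the 4 olfactory bulb genes had a median of -0.57 in males, with 0 of 4 above 0, and 0.27 in females, with 4 of 4 above 0; the female minus male difference had a median of 0.83, and none of the 4 passed an unadjusted p of 0.05 for it. The 6 astrocyte genes had medians of -0.02 in males and 0.22 in females, and the 11 genes of excitatory neurons -0.03 in males and -0.08 in females. The median female library of the astrocyte list was nonetheless at 11.93 in MO and 11.94 in SAL. PFC1 was the female MO library highest on the astrocyte (12.84), microglia (10.07), striatal (9.43) and endothelial (9.89) lists. It was the lowest on the list of excitatory neurons (9.89).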
